A study of Homo sapiens with 2 samples.

Results

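The genes described here are the DDX and DHX RNA helicases, in cells of the established human colorectal adenocarcinoma line DLD-1. They were taken by symbol: every probe set whose single gene symbol begins with DDX or DHX and a digit, leaving out the RNA sensors RIGI and DHX58. This gave 49 probe sets, 35 DDX and 14 DHX, of 17709 probe sets with a gene symbol and 21448 in all, with 1 probe set for each gene. The siControl group was 1 culture transfected with a negative control siRNA and the siYY1 group 1 culture transfected with a single siRNA against YY1. Both were transfected with Lipofectamine RNAiMAX at 5 nmol/L siRNA and kept in culture for 3 days before RNA was taken for a whole-transcript array. The question was how RNA levels differ once YY1, a zinc finger transcription factor, is knocked down.

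DDX and DHX proteins use ATP to open RNA duplexes, to pull proteins off RNA or to clamp onto it. DDX proteins (DEAD box) mostly act locally on short duplexes, while DHX proteins (DEAH box) mostly move along the strand. They drive the steps of the spliceosome, the maturation of ribosomal subunits in the nucleolus, the passage of mRNA through the nuclear pore, the scanning of mRNA by the ribosome and the decay of mRNA. Most members are expressed in nearly every tissue, and a few belong to the germline or are induced by interferon.

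Each value below is the authors' deposited value, taken as log2 from its range, after quantile normalization of the pair. Each difference is the siYY1 value less the siControl value, on the log2 scale. As each condition had 1 array, no replicate error or p-value can be given, and differences compare these arrays rather than the conditions. Precision is limited by that number of arrays. A gene was compared where it was protein-coding and its higher value reached 7.50, the middle of such values among all named genes. This held for 40 of the 49 members and for 8747 genes in all. No named probe set belonged to YY1, so whether its RNA fell in the siYY1 culture, and how far, was not analysed here. Of 8 markers of colorectal epithelium EPCAM, KRT8 and KRT18 were at 15.97 or above on both arrays, CDH1, KRT19 and CDX2 were also well above the minimum, VIL1 was near it, and LGALS4 was below it on both. Of 12 named markers of fibroblasts, leukocytes and endothelium, COL1A2 was above the minimum and the other 11 were below it. They ran from 3.62 to 8.62 in siControl and from 3.59 to 8.84 in siYY1, and their part in the results was not tested.

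YY1 binds DNA around an ATGG core. For this reason the 300 bases around each annotated start (250 before and 50 after, RefSeq, GRCh38.p14) were searched on both strands for the core ATGGCGG. They were also searched for a longer motif, the same core with AA and any base (N) before it and C after it. Of the 49 members, 45 had such a window, all but DDX12P, DDX49, DDX52 and DHX33. The longer motif, which always holds the core, was present for DDX17, DDX39A and DHX15, which is 6.67% of the 45. It was present for 8.11% of the 37 members compared with a window, for 4.62% of the 7386 compared genes with a window, and in 1.44% of all 35116 windows. A gene can have several windows (10753 for the 7386 genes) and was counted if any held the motif. Shares of genes and shares of windows are therefore unlike measures. The shorter core alone was present for DDX20, DDX53, DDX54 and DDX6. In all 7 of the 45 (15.6%) held the core, and 16.2% of the 37 members compared, against 14.1% of the compared genes and 5.55% of all windows. The stretches of 30 bases that hold these matches are shown to give their place and strand, in the direction of transcription, with the matched letters in capitals. Capitals that read CCGCCAT are the core on the opposite strand.
DHX15, chr4:24584526-24584555, minus strand: cctcgtcgccGCCGCCATTTTagctgttgg
DDX17, chr22:38506295-38506324, minus strand: ctcagcggcgGCCGCCATTTTgtgcagtcg
DDX39A, chr19:14419594-14419623, minus strand: atcagtactaAACATGGCGGCtcccaccga
DDX20, chr1:111755913-111755942, plus strand: ggcgcggctaccATGGCGGcggcatttgaa
DDX54, chr12:113185434-113185463, minus strand: cgcgcggcccgaATGGCGGccgacaagggc
DDX6, at its 2 annotated starts that matched, chr11:118790936-118790965, minus strand: aggaaggagcgtCCGCCATtttgggagctt
DDX6, chr11:118791218-118791247, minus strand: gagccgcggtcgCCGCCATgcggagaggca
DDX53, chrX:22999943-22999972, plus strand: aaataattgccaCCGCCATcttttggtgca
In DHX15 the match began 9 bases after the annotated start and in DDX17 it spanned the start, while in DDX39A it lay 230 bases before it. These matches are a description of letters and no measure of binding. Among the 3 genes with the longer motif DHX15 differed by 0.87, DDX17 by 0.24 and DDX39A by -0.18. None of the 7 genes with the core, of which DDX53 was below the brightness minimum, differed by 2-fold. Of the 1043 compared genes with the core 18.4% did, so a count of 0 among so few is close to the background. Over the 341 compared genes with the longer motif the median difference was 0.14, against -0.03 over the compared genes without it. For the shorter core the order was turned, with a median of -0.06 over the 1043 genes that held it and -0.01 over those that did not.

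Of the 40 helicase genes compared, 35 differed by less than 2-fold between the arrays. In detail, 1 was at least 2-fold higher in siYY1 (background over all genes compared 7.92%) and 4 were at least 2-fold lower (background 9.37%). Together that is 12.5% of the members compared, against 17.3% of all genes compared, which is no excess over the background. The 4 lower genes were DDX55, DHX57, DDX3X and DDX31, and the higher one was DHX38. The median difference was -0.11 over the 40 members compared and 0.00 over all 49, against -0.01 over all genes compared. In all 19 of the 40 (47.5%) lay within 0.25 of 0, a width chosen after the values were seen, against 28.0% of all genes compared. This share depended on the scaling: it was 32.5% against 28.3% in the values as deposited and 35.0% against 27.1% after centring on medians. The SD across members was 0.57, against 0.75 across all genes compared. Of the 40, 23 had a mean value of 11.27 or above, as had 2916 of all genes compared, and there the SD was 0.48 for members and 0.66 for all genes. Between 9.34 and 11.27, with 10 members, it was 0.47 against 0.78. Below 9.34, with 7 members, the members had the wider spread, at 0.87 against 0.81. There 3 of the 7 members were past 2-fold, against 611 of 2916 genes.

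**Figure D1:**
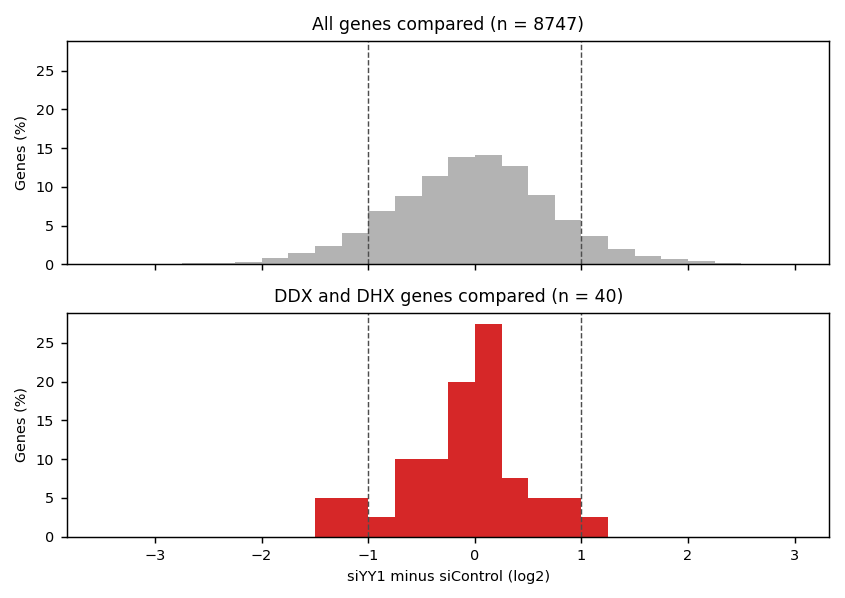
Histograms of the difference in level, siYY1 minus siControl in log2 units, as a percentage of the 8747 genes compared (top) and of the 40 DDX and DHX genes compared (bottom), with dashed lines at 2-fold. Of the members 4 lie past the lower line and 1 past the upper. The peak next to 0 is that of the quantile normalized values and is less marked in the values as deposited.

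The scaling of the arrays moved the balance of directions. Over all genes compared the median difference was -0.01 after quantile normalization, -0.13 in the values as deposited, -0.20 after centring on medians and -0.03 after loess on brightness. The members' median followed it, at -0.11, -0.24, -0.31 and -0.10. The same 31 of 40 members kept their sign under all 4 scalings, and the 9 that did not were at most 0.17 from 0 in the reported values. DDX55, DHX57, DDX3X and DDX31 were at least 2-fold lower under all 4. The background moved as well. Of all genes compared, 9.37% were at least 2-fold lower in the reported values and 9.64% after loess. The share was 12.2% in the deposited values and 14.3% after centring on medians, above the 10% that these 4 make of the 40 members. DHX38 was past 2-fold under quantile and loess scaling, at 0.99 in the deposited values and at 0.92 after centring on medians, both below the line.

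**Figure D2:**
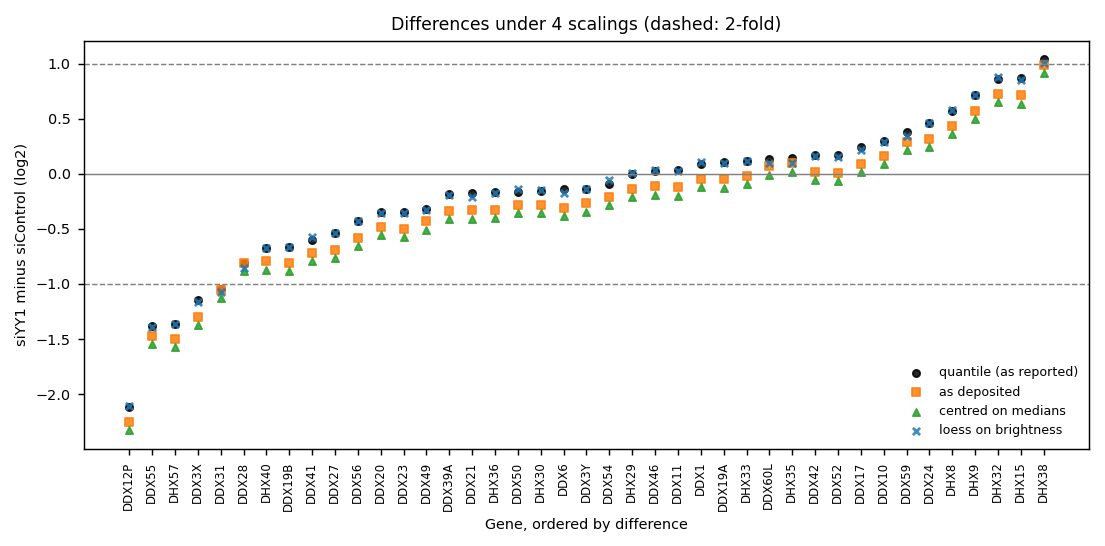
Difference in level, siYY1 minus siControl in log2 units, for the 40 genes compared and the pseudogene DDX12P, ordered by the reported value, with a symbol for each of 4 scalings and dashed lines at 2-fold. Deposited and median-centred values lie lower for nearly every gene, and the 4 lowest genes compared stay past the lower line under each scaling.

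Splicing helicases of the DHX branch all had higher values in siYY1, and those of the DDX branch lay on both sides of 0. Of the 11 in this group 9 were named and all 9 were compared, with a median of 0.14, 1 at least 2-fold higher and none lower. Past 2-fold either way that is 11.1% of the 9, against 17.3% of all genes compared, so there was no excess over the background. DHX38 (the human PRP16), which remodels the spliceosome between the steps of the splicing reaction, was at 7.64 in siControl against 8.68 in siYY1. That is 2.06-fold higher (1.04), with the siControl value close to the brightness minimum. DHX15 (PRP43), which takes the spent lariat spliceosome apart and also acts on pre-ribosomes, was at 12.49 in siControl against 13.36 in siYY1. Its difference of 0.87 is 1.82-fold, just outside the threshold. DHX8 (PRP22), which releases the spliced mRNA, was at 12.49 and 13.06, a difference of 0.57, and DHX35, a component of the catalytic spliceosome, was at 7.98 and 8.12. All 4 DHX members of the group were thus higher in siYY1, with a median of 0.72, and they stayed above 0 under the 4 scalings, with medians from 0.50 to 0.72. The smallest of these differences, that of DHX35, was 0.14, and 0.02 after centring on medians.

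The 5 DDX members of the group lay between -0.60 and 0.17. DDX41, found in the catalytic spliceosome and mutated in inherited myeloid neoplasms, was at 12.47 in siControl against 11.87 in siYY1, a difference of -0.60. DDX23 (PRP28), which helps to replace U1 with U6 at the 5' splice site, was at 13.10 and 12.76. DDX39A, a close relative of the export and splicing factor DDX39B, was at 11.54 and 11.36. DDX46 (PRP5), which acts when U2 joins the branch site, was at 12.24 and 12.27, and DDX42, which binds the same U2 machinery, at 11.41 and 11.58. The median of these 5 was -0.18, and it ran from -0.41 to -0.18 over the scalings. DDX46 and DDX42 lay on either side of 0 depending on the scaling. The split by DDX and DHX was made after the values were seen, it rests on 4 and 5 genes, and it was not tested. Over all members compared, the splicing genes among them, the 12 DHX genes had a median of 0.13, with 8 above 0. The 28 DDX genes had a median of -0.15, with 11 above 0. After centring on medians these medians were -0.04 and -0.37. Outside splicing, DHX57, DHX40, DHX36 and DHX30 were below 0 in the reported values and DHX29, DHX33, DHX9 and DHX32 above it. The medians over all members therefore do not show that the split reached beyond splicing. DDX39B and DHX16 were not analysed here.

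Nucleolar helicases of ribosome biogenesis held 2 of the 4 genes that were at least 2-fold lower. Of 16 in this group 14 were named and 12 compared, with 2 at least 2-fold lower and none higher, and with a median of -0.17. Those 2 are 16.7% of the 12, against 9.37% of all genes compared that were lower and 17.3% that were past 2-fold either way. A count of 2 is too small to set the group apart from the background, and this was not tested. DDX55, which acts in the maturation of the large subunit, was at 9.66 in siControl against 8.28 in siYY1, a difference of -1.38 (2.60-fold lower). Of all genes compared 3.96% had a lower difference. DDX31, another nucleolar DEAD box protein, was at 8.30 in siControl against 7.25 in siYY1, which is 2.06-fold lower. Its difference of -1.04 was just inside the threshold and its siYY1 value was below the brightness minimum, so the size is uncertain.

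The other 10 nucleolar genes compared lay between -0.54 and 0.46. DDX27, which takes part in the processing of pre-rRNA, was at 12.14 in siControl against 11.60 in siYY1. DDX56 and DDX49 differed by -0.43 and -0.32. DDX21, which couples RNA polymerase I transcription to pre-rRNA processing, was at 14.12 and 13.94, and DDX50, its paralog beside it on chromosome 10, was at 10.90 and 10.74. At the upper end DDX24 was at 11.68 in siControl against 12.14 in siYY1, and DDX10 differed by 0.30. DDX54, DHX33 and DDX52 were between -0.09 and 0.17. DHX37 and DDX51, both below the brightness minimum on both arrays, differed by 0.57 and 0.21, and DDX18 and DDX47 were not analysed here.

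**Figure D3:**
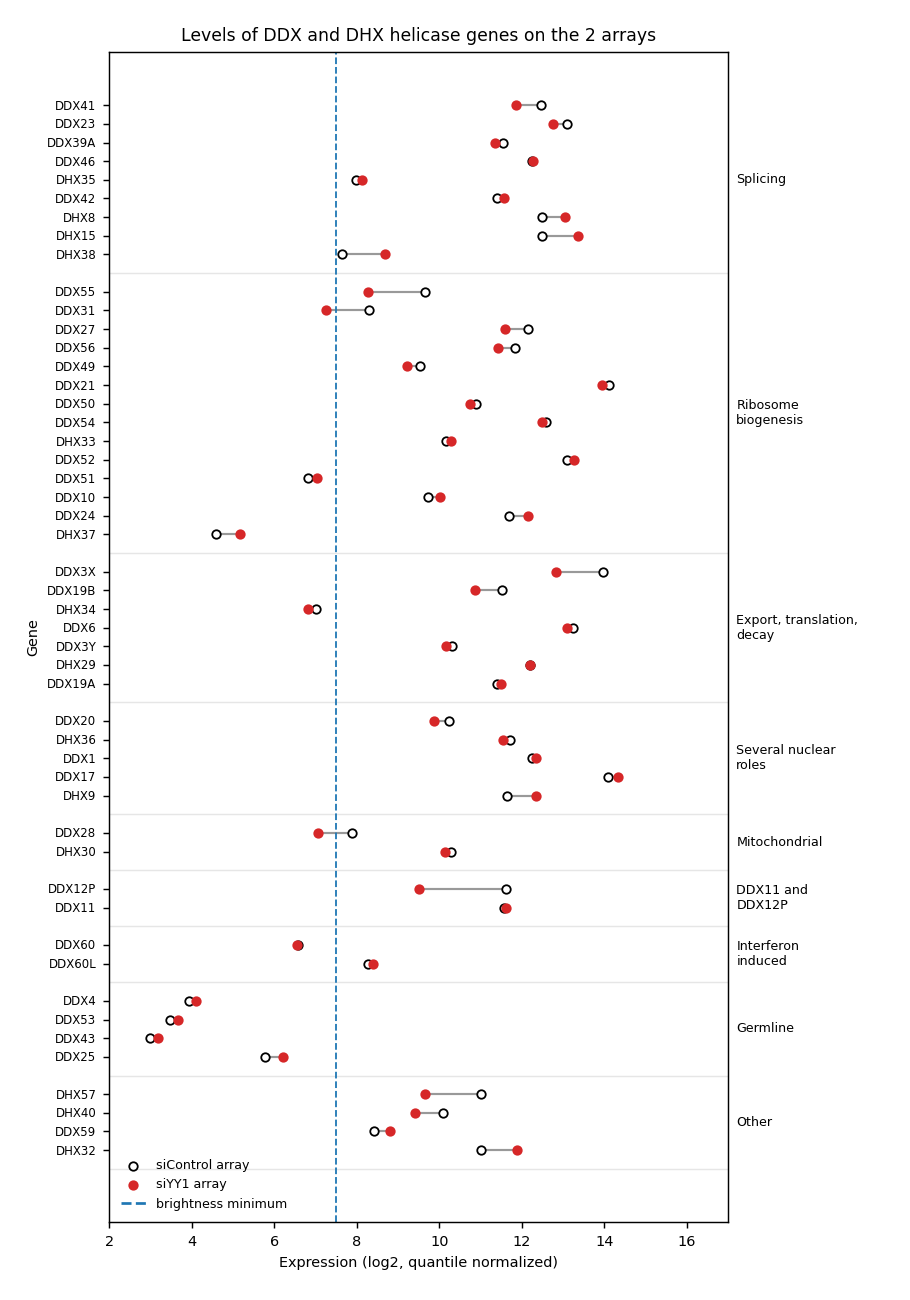
Level of each of the 49 genes on the siControl array (open circles) and the siYY1 array (red circles) in log2 units after quantile normalization, grouped by role, with the brightness minimum of 7.50 as a dashed line. The widest gap is that of DDX12P, at 11.62 and 9.50. DDX55, DHX57, DDX3X and DDX31 are lower and DHX38 is higher by at least 2-fold in siYY1.

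Helicases of mRNA export, translation and decay were at or below 0 for the most part. Of 7 named 6 were compared, with 1 at least 2-fold lower, none higher, and a median of -0.14. Past 2-fold either way that is 16.7% of the 6, against 17.3% of all genes compared, which is close to the background. DDX3X, which helps ribosomes to start on mRNAs with structured leaders, was at 13.98 in siControl against 12.83 in siYY1, a difference of -1.14 (2.21-fold lower). Its paralog DDX3Y was at 10.30 and 10.16, a difference of -0.14. The gap between the differences of these paralogs was 1.0, and it was 1.03 in the deposited values. DDX19B, which strips proteins from mRNA as it leaves the nuclear pore, was at 11.52 in siControl against 10.86 in siYY1. Its neighbour and near copy DDX19A was at 11.39 and 11.50, so the differences of the 2 copies lay 0.77 apart. Probe sets of such close copies can pick up each other's RNA, so neither value is certain for its own gene alone.

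The remaining members of that group were near 0. DDX6, which represses translation and promotes decapping in P-bodies, was at 13.23 in siControl against 13.09 in siYY1. DHX29, which helps the small ribosomal subunit to scan structured leaders, was at 12.20 on both arrays. DHX34, a factor of nonsense-mediated decay, was below the brightness minimum and differed by -0.18. Under the deposited and median-centred values all 6 compared were below 0.

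Among helicases with several nuclear roles none was past 2-fold, against 17.3% of all genes compared, and the median of the 5 compared was 0.09. The highest was DHX9 (RNA helicase A), which unwinds long RNA duplexes and takes part in transcription, at 11.64 in siControl against 12.35 in siYY1, a difference of 0.71. DDX17, which works with the microRNA Microprocessor and as a transcriptional coactivator, was at 14.10 and 14.34. DDX1, a subunit of the tRNA ligase complex, was at 12.24 and 12.34. The lowest were DDX20 (Gemin3), a subunit of the SMN complex that assembles spliceosomal snRNPs, at 10.23 and 9.89, and DHX36, which resolves G-quadruplexes, at 11.72 and 11.55. DDX1 lay below 0 in the deposited and median-centred values. DDX5, the paralog of DDX17, was not analysed here.

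The mitochondrial members act in the assembly of the mitochondrial ribosome and were both lower in siYY1, by less than 2-fold. DDX28 was at 7.88 in siControl against 7.07 in siYY1, a difference of -0.81, just outside the threshold and with a siYY1 value below the brightness minimum. DHX30 was at 10.29 and 10.14.

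The members with less settled roles spanned most of the range of the family. DHX57 was at 11.02 in siControl against 9.66 in siYY1, a difference of -1.36 (2.57-fold lower), and 4.08% of all genes compared had a lower difference. DHX40 was at 10.09 and 9.42. DHX32 was higher in siYY1, at 11.01 and 11.88, a difference of 0.86 just under 2-fold. DDX59 was at 8.42 and 8.81.

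The largest difference of all 49 belonged to a pseudogene. DDX12P is a pseudogene copy of DDX11, which despite its symbol encodes a DNA helicase that acts in sister chromatid cohesion. DDX12P was at 11.62 in siControl against 9.50 in siYY1, a difference of -2.12 (4.35-fold lower), and it was left out of the comparison as a pseudogene. DDX11 was at 11.58 in siControl against 11.61 in siYY1, a difference of 0.03. The gap between these copies was 2.15, and 2.13 to 2.15 over the 4 scalings. Because the copies are nearly identical, how much of either signal comes from the other gene was not tested.

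Members bound to other tissues or to interferon did not stand out. The germline genes DDX4 (VASA), DDX25, DDX43 and DDX53 were all below the brightness minimum on both arrays, with differences from 0.18 to 0.44. The interferon-induced DDX60 was at 6.57 in siControl against 6.55 in siYY1, and DDX60L at 8.27 and 8.40. The 8 protein-coding members not compared ran from -0.18 for DHX34 to 0.57 for DHX37. Over all 48 protein-coding members, with no brightness minimum, 1 was 2-fold higher and 4 were 2-fold lower. The shares over all 17245 named protein-coding genes were 4.62% and 5.67%.

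Differences were also set beside genomic span. Above and below 33.3 kb, the median span of the members compared, the members' median differences were 0.06 and -0.18. The same split of all genes compared gave 0.04 and -0.06. The higher member past 2-fold, DHX38, was below that span, and the 4 lower ones were divided evenly.

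RNA helicases outside the DDX and DHX names gave 13 named genes, of which 10 were compared. Of the 10, 1 was at least 2-fold higher, 1 at least 2-fold lower, and the median was 0.07. Together that is 20% of the 10, against 17.3% of all genes compared, which for so few genes is close to the background. SNRNP200, which unwinds U4 from U6 in the spliceosome, was 2.82-fold higher in siYY1, with 12.67 in siControl against 14.16 in siYY1. UPF1, the helicase of nonsense-mediated decay, was 2.05-fold lower, at 10.34 and 9.30. EIF4A3, the helicase of the exon junction complex, differed by 0.53, MTREX, which feeds the nuclear exosome, by -0.54, and AQR by 0.29.

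Proteins that bind or activate these helicases held larger differences in both directions. Of 29 partner genes compared 3 were higher and 6 lower by 2-fold or more, together 31.0%, against 12.5% of the helicases and the 17.3% background. Their median was 0.04, and the difference between these shares was not tested. The list of partners was chosen with earlier results of these data known. Its share therefore cannot show that partners in general differ more than other genes. NUP214, the nucleoporin that docks DDX19, was 4.90-fold higher, at 10.95 in siControl against 13.24 in siYY1. PATL1, a decapping factor that binds DDX6, was 2.63-fold higher, while EDC3, which binds the same face of DDX6, was 2.39-fold lower. SARNP, which binds DDX39B, was 2.36-fold higher, and THOC1 and THOC5 of the THO complex that works with DDX39B were 2.30-fold and 2.06-fold lower. UTP14A, the cofactor of DHX37, was at 10.86 in siControl against 8.28 in siYY1, a difference of -2.59. CMTR1, a cap methyltransferase that binds DHX15, was 2.75-fold lower, and GEMIN5, which sits with DDX20 in the SMN complex, was 2.39-fold lower. Of the helicases these partners bind, DDX6, DHX15, DDX19A, DDX19B and DDX20 were compared and none was past 2-fold, which for so few genes is close to the background. DHX37 was too dim to be compared, and DDX39B was not analysed here.

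**Figure D4:**
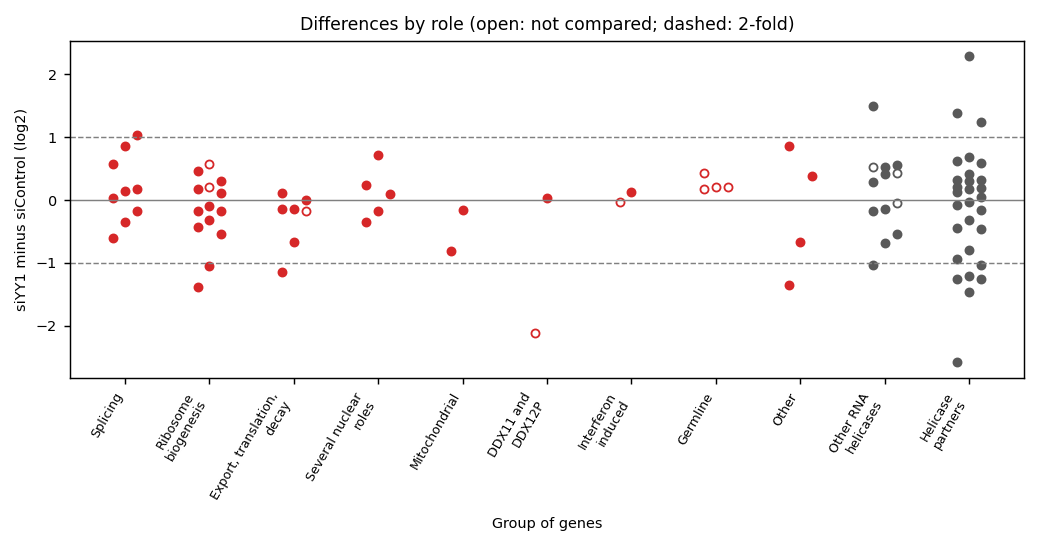
Difference in level, siYY1 minus siControl in log2 units, for each gene by role, with the 49 DDX and DHX genes in red and other RNA helicases and partner proteins in grey. Open circles are genes that were not compared and dashed lines mark 2-fold. Partners run from -2.59 for UTP14A to 2.29 for NUP214, while the helicase genes compared run from -1.38 to 1.04.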

How the data were processed

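RNA from 1 siControl and 1 siYY1 culture was measured on whole-transcript arrays, per the labels' protocols. The authors deposited 1 value per probe set, taken here as log2 expression because values run from 2.51 to 17.9. The software behind them and their normalization were not given in the sources used here. Because quartiles differed by over 0.05, the arrays were quantile normalized over all 21448 probe sets. Probe sets were named through the platform's annotation table, updated by gene ID to RefSeq GRCh38.p14. Values of the 20 genes with several probe sets were averaged. Those probe sets' differences lay a median of 0.38 apart, and alternatives that moved a difference by less were treated as unmoved. Calls were at 2-fold. The computation was tested on simulated data. Protein features were not analysed here.

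Genes named were every member compared past 2-fold, the highest and lowest of each role group, members next to the threshold and up to 4 genes of each further list per direction. Others were named after their values were seen. The members and lists were chosen with earlier results of these data known. Python 3.11.15, numpy 2.4.6, pandas 2.3.3, statsmodels 0.14.6 and matplotlib 3.10.9 were used.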

Additional observations from a re-analysis of the deposited data

How the results depend on the processing

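Of 40 members compared, 1 was 2-fold higher and 4 were 2-fold lower. None was 2-fold higher (0) in the values as deposited, after centring on medians, with a brightness minimum at the 75th percentile or at a 3-fold threshold, and 4 were higher at 1.5-fold. The lower count was 2, DDX3X and DHX57, with the 75th percentile minimum, where 26 members were left, 8 at 1.5-fold and 0 at 3-fold. Over all genes compared, the shares higher and lower were 19.4% and 21.8% at 1.5-fold, and 1.89% and 2.44% at 3-fold. With the 75th percentile minimum they were 8.31% and 8.67%. The share higher was 6.13% in the values as deposited and 5.03% after centring on medians, and the share lower was 12.2% and 14.3%. Loess, no brightness minimum, a minimum on the mean of the arrays and the brightest probe set left the same 1 and 4 genes. The members' median differences moved by less than 0.38 under all alternatives run. All 147 differences of single members under the 3 other scalings also moved by less than that. This is a weak check, because the width is larger than the shifts that these scalings made. Within it 31 of the 40 members compared kept their sign, and DHX38 fell below 2-fold in the deposited and median-centred values. No paired analysis was possible because each group was 1 array.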
